A study of Mus musculus with 24 samples.

Results

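The 40 genes described here code for the enzymes and transporters of glycolysis and for targets and regulators of the hypoxia response. They were chosen by gene name, through the names that GENCODE M21 gives to the Ensembl identifiers. They take up 41 of the 54432 rows of the tables, because Aldoa has 2 identifiers. Of these, the row with the higher mean stands for the gene. RNA was sequenced from mpkCCD cells, a line of mouse cortical collecting duct epithelium, labelled as wild type, of C57BL/6 strain and at passage 10 to 11. Cells grew on permeable filters for 6 days in complete medium, spent 24 h in minimal medium, and then received either dDAVP, a vasopressin analogue that activates the V2 receptor, or vehicle in the chamber under the filter. The 8 groups are dDAVP for 3, 6, 12 and 24 h and vehicle for 3, 6, 12 and 24 h, with 3 libraries each. No hypoxia or change of glucose was among the labelled treatments, and no library dates from before the treatment. The line is a single cell line, and the labels do not say whether the 3 libraries of a group came from separate cultures, so the p-values reflect only how far these libraries vary. In a bulk sample, fewer cells that express a gene and less of its RNA per cell cannot be told apart.

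Glycolysis converts glucose to pyruvate in the cytosol. Where oxygen is short, pyruvate is mostly reduced to lactate instead of entering the mitochondria. Hypoxia-inducible factor (HIF) is a pair of an alpha subunit, HIF-1alpha or HIF-2alpha, and a stable beta subunit. Prolyl hydroxylases of the EGLN family use oxygen to mark the alpha subunits for degradation, so HIF activity is set largely at the level of the protein and not of its mRNA. When the alpha subunits escape, the pair binds a short core motif, ACGTG or GCGTG, and raises transcription of glucose transporters, most glycolytic enzymes, mitophagy receptors and its own hydroxylases. In the kidney, cells of the collecting duct have a larger capacity for glycolysis than those of the proximal tubule.

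The libraries held 17.25 to 27.64 M estimated counts. The cells carried the label's cell type: 8 of 11 principal cell markers and 6 of 6 epithelial markers lay above 1 TPM (a measure of transcript share corrected for gene length), against 0 of 6 intercalated cell, 0 of 5 fibroblast, 1 of 6 proximal tubule (Lrp2), 1 of 5 endothelial (Pecam1) and 2 of 5 leukocyte markers, the highest of which was Csf1r at a mean of 8.35 TPM. The principal cell markers under 1 TPM were Scnn1b, Aqp4 and Elf5. Aqp2, the water channel that vasopressin induces, was higher in dDAVP cells at each time, by 4.38, 5.29, 4.31 and 5.35 on the log2 scale at 3, 6, 12 and 24 h. A set of 1730 olfactory and vomeronasal receptor genes and pseudogenes, which serve smell and pheromone sensing, took 0.138 to 0.917% of a library. This share was 0.138 to 0.281% in dDAVP cells and 0.451 to 0.591% in vehicle cells at 6 h, and the ranges of the treatments overlapped at the other times. Counts of genes are given from the group means and, in most comparisons, also with the log2 of this receptor share added to the model. Values of a single gene come from the group means unless the share is named. A gene passes a test at an adjusted p under 0.05.

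All 40 genes passed the filter on low counts, and 36 reached 5 CPM (counts scaled to library size) in at least 1 group. On the per-length TPM scale, which allows genes to be set against each other, 11 genes averaged above 100 TPM, 16 lay between 10 and 100, 8 between 1 and 10, and 5 under 1. The order at the top was Gapdh (mean of 24 libraries 1468 TPM), Pkm (728), Ldha (508), Tpi1 (443), Aldoa (385) and Eno1 (269), all enzymes of the steps from aldolase to lactate dehydrogenase. The 5 genes under 1 TPM were Epas1 (HIF-2alpha), the lactate exporter Slc16a3, Car9 (carbonic anhydrase 9), Ldhb and the mitochondrial kinase Ak4. Slc16a3, Car9, Ldhb and Ak4 did not reach 5 CPM in any group and were too low for their fold changes to be given weight. Epas1 had 81.6 to 185 counts per library and did reach 5 CPM.

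Within each family a single member carried most of the RNA. Ldha made up 99.9% of Ldha and Ldhb, Hif1a 96.9% of Hif1a and Epas1, Aldoa 96.4% of Aldoa and Aldoc, and Hk1 81.6% of the hexokinases Hk1 and Hk2, as means of the 24 libraries on the TPM scale. Phosphofructokinase was split between the liver form Pfkl (61%), the platelet form Pfkp (33.3%) and the muscle form Pfkm (5.66%). Eno1 is uncertain, since its near-identical copy Eno1b averaged 457 TPM, 170% of the value of Eno1, and the counting could divide reads between them. With Eno1b and the named pseudogenes of other genes added to their parents, no call of a gene changed in any comparison used here.

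The main movement of these genes was over time. Between 3 h and 12 h, 26 of 40 genes rose in dDAVP cells and 25 rose in vehicle cells, and none fell in either, where 0.545% and 0.0403% of all genes fell. All 25 are among the 26, the remaining gene being Pkm, which missed the threshold in vehicle cells (adjusted p = 0.0561). Among all 29743 genes tested, 0.635% rose in dDAVP cells and 0.484% in vehicle cells over the same interval, and among the 13123 genes that reached 5 CPM in a group these shares were 1.32% and 1.07%. The median of the 40 genes was 0.84 in dDAVP cells and 0.97 in vehicle cells on the log2 scale, against -0.025 and -0.050 for all genes tested. For genes that reached 5 CPM the medians were -0.00064 and 0.094. With the share as covariate, 30 genes rose in dDAVP cells and 29 in vehicle cells, of all genes 3.23% and 1.6%, and the same 25 were among them. Across the 40 genes, the log2 changes in the dDAVP and vehicle libraries, which are separate libraries, had a Pearson correlation of 0.86. Genes are not independent replicates, and this value is a description.

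The test over the whole course, which asks whether a gene differs among the 4 times, passed for 28 genes in dDAVP cells and 30 in vehicle cells, where 2.28% and 10.1% of all genes passed. For 27 genes it passed in both. As covariate, the share gave 31 genes in dDAVP cells and 30 in vehicle cells, of all genes 9.01% and 2.6%. At 6 h against 3 h no gene of the 40 passed in dDAVP or in vehicle cells, in either model, with edgeR or with DESeq2, and 0.00672% and 0% of all genes passed from the group means. An unadjusted p under 0.05 was found for 21 genes in dDAVP cells and 6 in vehicle cells (21.1% and 0.878% of all genes), and with the share for 3 and 20 (5.23% and 3.65%). The log2 change at 6 h was above 0 for 34 of 40 genes in each treatment. Its median was 0.33 in dDAVP cells and 0.21 in vehicle cells, against -0.18 and -0.024 for all genes tested. Genes that reached 5 CPM had medians of 0.17 and 0.034. With the share as covariate the medians were 0.099 and 0.18 for the 40 genes and 0.0054 and 0.020 for genes that reached 5 CPM. At 12 h against 6 h, a comparison added after the data were seen, 17 genes were higher in dDAVP cells and 19 in vehicle cells, with 0.588% and 0.266% of all genes higher. The covariate gave 27 in each, with 2.28% and 1.28% of all genes higher. Summed over the 17 glycolytic enzymes from hexokinase to lactate dehydrogenase, the RNA amounted to 3358 to 3806 TPM at 3 h, 3248 to 3565 at 6 h, 6255 to 6853 at 12 h and 4758 to 5370 at 24 h in dDAVP cells. In vehicle cells the sum was 3508 to 3568, 3463 to 3675, 5258 to 5801 and 4888 to 5126 TPM at the same times. In both treatments every 12 h library lay above every 3 h and 6 h library, and at 24 h every library was still above those of 3 h.

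**Figure D1:**
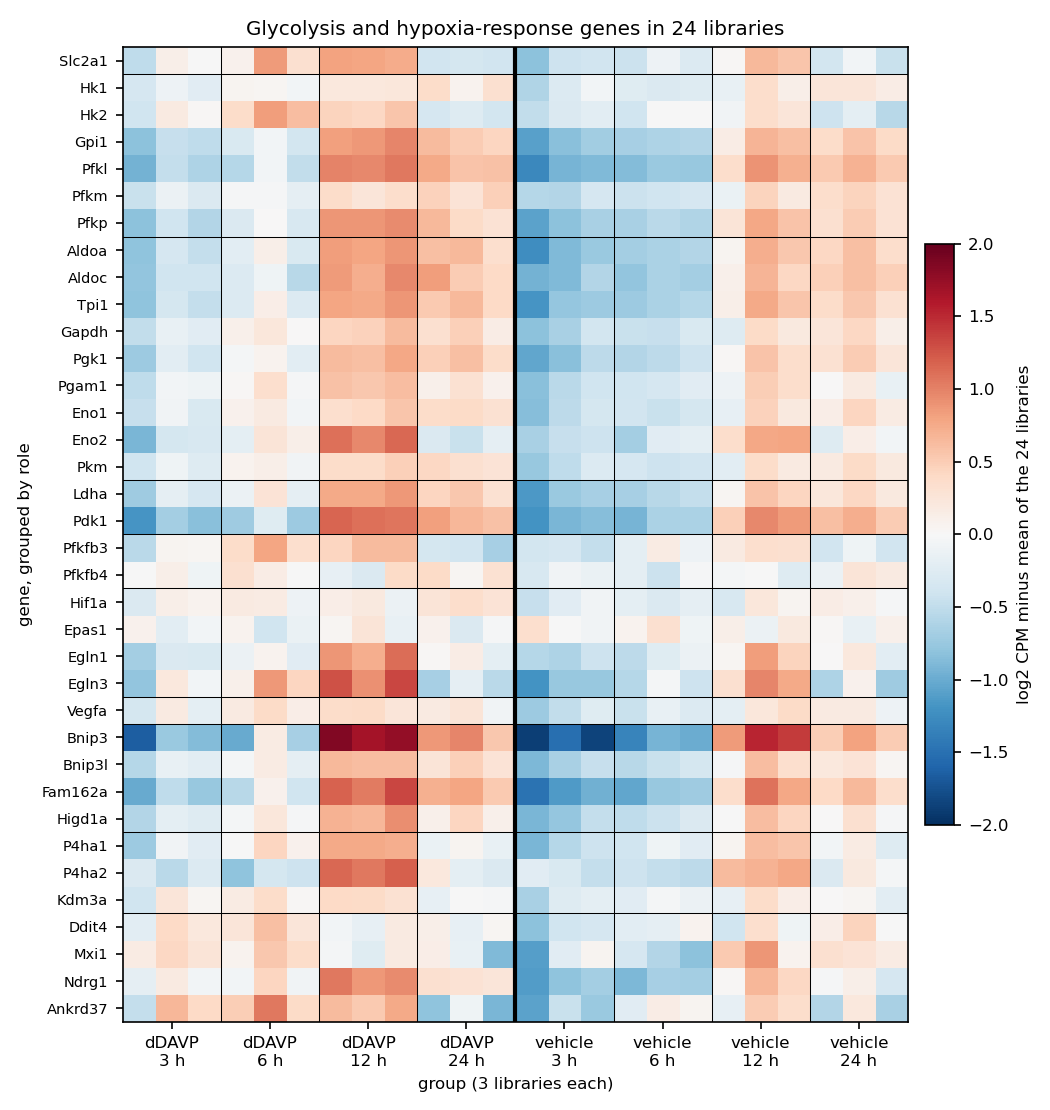
Level of the 36 genes that reached 5 CPM, in each of the 24 libraries, as log2 CPM minus the gene's mean over all libraries (color scale from -2 to 2). Columns are libraries in groups of 3, dDAVP on the left and vehicle on the right, and thin lines part the roles. Most genes are red at 12 h and blue at 3 h in both treatments, and Bnip3 has the widest range.

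The sequences before the transcription start are shown for 5 genes that rose and for Hif1a, because HIF acts through the motif named above and the genes moved together. The 6 were chosen after values and matches were seen, to show windows with and without the motif, and are not the 6 of largest rise: Pfkl, for example, rose more than Pfkp and had 1 match in its full window. Windows were taken from RefSeq on build GRCm38.p6, and 37 of the 40 genes had one, with none for Ndrg1, Bnip3l and Epas1. The RefSeq start lay 6492 bases from the GENCODE M21 start of the gene for Hif1a, 5857 for Ankrd37 and 4329 for Ldha. For the other genes with a window the distance was at most 829 bases (P4ha2). Each line holds the 250 bases before the start, 5′ to 3′ on the strand of the gene, in lower case, with every match to ACGTG or GCGTG on either strand (CACGT or CACGC on the strand shown) in capitals. Matches that overlap form the longer word CACGTG, and the match of Pdk1 that runs past the start is shown in part. Bnip3 lies at chr7:138909507-138909756 (minus strand), Fam162a at chr16:36071562-36071811 (minus strand), Pdk1 at chr2:71872974-71873223 (plus strand) and Pfkp at chr13:6648772-6649021 (minus strand). Gpi1, at chr7:34230337-34230586 (minus strand), also rose but holds no match, and Hif1a, at chr12:73907617-73907866 (plus strand), did not pass over the course and holds 3.

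Bnip3: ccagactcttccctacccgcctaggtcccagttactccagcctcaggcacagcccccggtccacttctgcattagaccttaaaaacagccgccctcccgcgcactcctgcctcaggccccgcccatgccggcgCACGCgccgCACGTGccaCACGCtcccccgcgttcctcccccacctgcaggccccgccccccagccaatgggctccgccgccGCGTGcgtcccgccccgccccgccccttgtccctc

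Fam162a: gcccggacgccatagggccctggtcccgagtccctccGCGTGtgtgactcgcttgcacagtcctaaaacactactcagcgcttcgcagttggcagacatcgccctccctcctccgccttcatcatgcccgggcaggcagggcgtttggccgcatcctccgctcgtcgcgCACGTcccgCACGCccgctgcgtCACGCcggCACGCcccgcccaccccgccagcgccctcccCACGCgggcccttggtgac

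Pdk1: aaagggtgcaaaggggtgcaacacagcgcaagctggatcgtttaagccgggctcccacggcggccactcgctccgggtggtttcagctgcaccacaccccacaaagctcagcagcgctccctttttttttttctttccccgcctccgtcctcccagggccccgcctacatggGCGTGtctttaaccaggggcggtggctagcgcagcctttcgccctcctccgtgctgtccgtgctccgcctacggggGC

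Pfkp: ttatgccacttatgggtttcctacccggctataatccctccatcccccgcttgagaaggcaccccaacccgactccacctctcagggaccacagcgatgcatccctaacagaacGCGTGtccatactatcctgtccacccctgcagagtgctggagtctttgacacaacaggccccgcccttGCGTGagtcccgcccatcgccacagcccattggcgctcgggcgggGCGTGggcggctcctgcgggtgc

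Gpi1: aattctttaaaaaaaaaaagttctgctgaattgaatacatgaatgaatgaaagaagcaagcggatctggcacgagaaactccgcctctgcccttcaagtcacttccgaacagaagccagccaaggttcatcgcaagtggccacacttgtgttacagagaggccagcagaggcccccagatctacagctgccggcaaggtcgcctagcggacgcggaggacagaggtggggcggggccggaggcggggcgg

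Hif1a: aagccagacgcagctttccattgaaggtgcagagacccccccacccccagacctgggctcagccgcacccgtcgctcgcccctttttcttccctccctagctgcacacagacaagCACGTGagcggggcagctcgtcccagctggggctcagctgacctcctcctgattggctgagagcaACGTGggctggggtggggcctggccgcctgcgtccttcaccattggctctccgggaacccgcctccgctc

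In the full window, from 250 bases before to 50 bases after the start, 29 of the 37 genes held at least 1 match (78.4%). Of all 32851 windows 43.8% did, and of the windows of genes that reached 5 CPM 61.2%. At least 3 matches were found for 13 of 37 genes (35.1%), against 8.93% of all windows and 15.7% of those of genes that reached 5 CPM, with 7 in Ldha, 6 in Fam162a and 5 in Bnip3. The word CACGTG was in 4 of 37 (10.8%), against 7.15% of all windows and 9.71% of those of genes that reached 5 CPM. A match was present in 19 of the 23 genes with a window that rose at 12 h in both treatments and both models, and in 10 of the other 14. Aldoa, Tpi1, Gpi1, Eno2 and Pkm, which rose in dDAVP cells, held none in this window. The genes were listed in part as HIF targets, so the comparison with all windows does not bear on their rise. A match is a description of these letters and does not show that a factor binds there.

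Entry of glucose and exit of lactate rest on membrane carriers. Slc2a1 (GLUT1, chromosome 4) is the basal glucose transporter of most epithelia. In dDAVP cells, Slc2a1 had 59.8, 91.8 and 84.8 CPM at 3 h, 89.8, 152 and 105 CPM at 6 h, 149, 146 and 142 CPM at 12 h and 65.3, 66.6 and 65.4 CPM at 24 h. The vehicle cells had 47.8, 64 and 65.1 CPM at 3 h, 63, 78.8 and 70 CPM at 6 h, 85.9, 133 and 125 CPM at 12 h and 65.6, 81.5 and 62.2 CPM at 24 h. In both treatments the 12 h libraries lay above all 3 h libraries and above all 24 h libraries, and the 24 h and 3 h libraries overlapped. The log2 change of Slc2a1 at 12 h against 3 h was 0.88 ± 0.18 in dDAVP cells and 0.96 ± 0.18 in vehicle cells (SE; adjusted p = 0.011 and 0.00807). At 24 h against 3 h it was -0.26 ± 0.18 in dDAVP cells and 0.24 ± 0.18 in vehicle cells, neither of which passed. Slc16a3, the monocarboxylate carrier MCT4 that is a classical hypoxia target, stayed low, with a mean of 0.598 TPM over the 24 libraries.

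**Figure D2:**
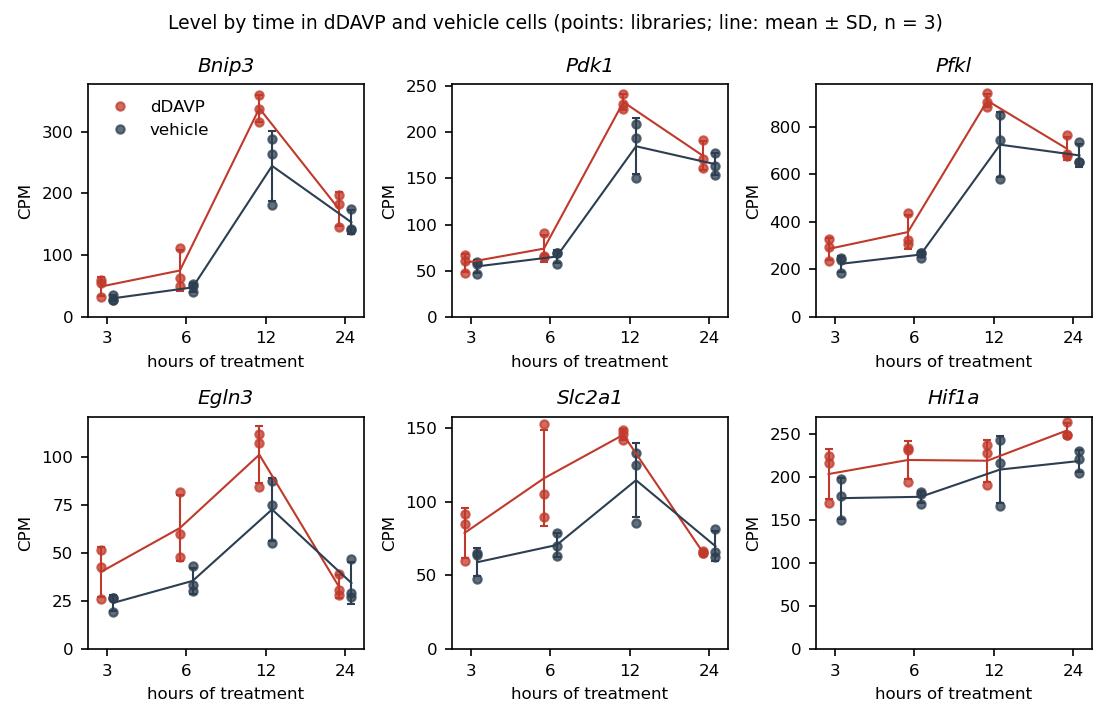
CPM (y axis, from 0) at 3, 6, 12 and 24 h (x axis, equally spaced) for 6 genes, with dDAVP in red and vehicle in dark blue. Points are libraries, and lines join the group means, with whiskers for the SD (n = 3). Bnip3, Pdk1 and Pfkl are high at 12 h and remain above 3 h at 24 h, Egln3 and Slc2a1 are lower at 24 h than at 12 h, and the Hif1a groups of 3 h and 12 h overlap.

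The first steps of the pathway phosphorylate glucose and commit it to glycolysis, and 4 of the 6 genes of this part rose at 12 h in each treatment from the group means: Gpi1, Pfkl, Pfkm and Pfkp. With the share as covariate 6 rose in dDAVP cells and 5 in vehicle cells. Pfkl, the liver form of phosphofructokinase, which catalyzes the committed step, had 236, 326 and 296 CPM at 3 h, 307, 439 and 324 CPM at 6 h, 904, 885 and 939.7 CPM at 12 h and 764, 675 and 684 CPM at 24 h in dDAVP cells. In vehicle cells Pfkl had 185, 238 and 246 CPM at 3 h, 248, 271 and 267 CPM at 6 h, 578, 849 and 746 CPM at 12 h and 649.5, 736 and 651 CPM at 24 h. No 12 h library of Pfkl overlapped a 3 h or 6 h library of its treatment. Its log2 change at 12 h was 1.67 ± 0.16 in dDAVP cells and 1.70 ± 0.16 in vehicle cells (adjusted p = 4.25e-07 and 6.15e-07), and at 24 h it was 1.31 ± 0.15 in dDAVP cells and 1.61 ± 0.16 in vehicle cells (adjusted p = 2.47e-05 and 2.77e-06).

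Pfkp, the platelet form of the same enzyme, gave 104, 139 and 122 CPM at 3 h, 149, 185 and 146 CPM at 6 h, 338, 338 and 352 CPM at 12 h and 286, 238 and 224 CPM at 24 h in dDAVP cells, and 87.1, 103 and 117 CPM at 3 h, 117, 126 and 121 CPM at 6 h, 218, 311 and 271 CPM at 12 h and 228, 261 and 224 CPM at 24 h in vehicle cells. It followed Pfkl in shape, with a log2 change at 12 h of 1.49 ± 0.14 in dDAVP cells and 1.38 ± 0.14 in vehicle cells (adjusted p = 4.25e-07 and 2.44e-06). The muscle form Pfkm moved less, by 0.59 ± 0.12 in dDAVP cells and 0.67 ± 0.12 in vehicle cells (adjusted p = 0.0106 and 0.0049). The makeup of the enzyme family shifted with it. Pfkm made up 3.63 ± 0.125% of the 3 forms at 12 h in dDAVP cells, against 6.83 ± 0.316% at 3 h (TPM, SD, n = 3 each), and 4.13 ± 0.213% at 12 h in vehicle cells, against 7.31 ± 0.776% at 3 h. These shares were not tested.

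Gpi1, glucose-6-phosphate isomerase, showed 193, 249.7 and 240.4 CPM at 3 h, 277, 330.1 and 266 CPM at 6 h, 606, 623 and 673 CPM at 12 h and 531, 488 and 459 CPM at 24 h in dDAVP cells. For vehicle cells, Gpi1 showed 162, 192 and 212 CPM at 3 h, 216, 224 and 228 CPM at 6 h, 380.5, 550.4 and 522 CPM at 12 h and 440.4, 508 and 448 CPM at 24 h. It rose at 12 h by 1.48 ± 0.14 in dDAVP cells and 1.36 ± 0.14 in vehicle cells on the log2 scale (adjusted p = 4.25e-07 and 2.44e-06). Of the hexokinases, Hk1, the constitutive form, changed by 0.43 ± 0.13 in dDAVP cells and 0.41 ± 0.13 in vehicle cells (adjusted p = 0.126 and 0.192), and with the share by 0.41 and 0.30, which passed (adjusted p = 0.0013 and 0.0441). Hk2, the inducible form, had 27.3, 40.8 and 36.6 CPM at 3 h, 46.7, 64.8 and 55.7 CPM at 6 h, 49, 48 and 52.8 CPM at 12 h and 28.6, 30.2 and 28 CPM at 24 h in dDAVP cells and 25.6, 29.6 and 31.3 CPM at 3 h, 27.3, 35.8 and 36 CPM at 6 h, 34.3, 46.1 and 42.6 CPM at 12 h and 27.1, 31.6 and 24.7 CPM at 24 h in vehicle cells. Its dDAVP libraries at 6 h and 12 h overlapped each other and lay above those at 3 h and 24 h. The course of Hk2 passed in both treatments (adjusted p = 0.000922 and 0.042), while 12 h against 3 h did not from the group means (log2 change 0.52 ± 0.15 in dDAVP cells and 0.51 ± 0.15 in vehicle cells, adjusted p = 0.102 and 0.157). With this covariate the adjusted p was 0.00323 in dDAVP cells and 0.079 in vehicle cells.

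Lower glycolysis, taken here as the part from aldolase to pyruvate kinase, includes the steps that yield the ATP of the pathway. All 9 genes of this part rose at 12 h in dDAVP cells and 8 of 9 in vehicle cells, with medians of 1.11 and 1.12 on the log2 scale. Aldoa, the main aldolase, had 457, 629.5 and 572 CPM at 3 h, 685, 861 and 641 CPM at 6 h, 1418, 1368 and 1467 CPM at 12 h and 1209, 1250 and 1008 CPM at 24 h in dDAVP cells. In vehicle cells the values of Aldoa were 336, 433 and 477 CPM at 3 h, 494, 515 and 531 CPM at 6 h, 823, 1315 and 1152 CPM at 12 h and 1058, 1210 and 1016 CPM at 24 h. Its log2 change at 12 h was 1.36 ± 0.17 in dDAVP cells and 1.40 ± 0.17 in vehicle cells (adjusted p = 2.6e-05 and 3.16e-05). Aldoc, the brain-type aldolase and a minor form here, had 19.4, 25.4 and 25.4 CPM at 3 h, 27.9, 31.7 and 22.8 CPM at 6 h, 60.3, 55.5 and 65.6 CPM at 12 h and 60.2, 48 and 44.2 CPM at 24 h in dDAVP cells, and 17.4, 18.1 and 22.3 CPM at 3 h, 19.4, 21.6 and 20.9 CPM at 6 h, 35.9, 53.7 and 44.9 CPM at 12 h and 46.8, 50.9 and 46.8 CPM at 24 h in vehicle cells. Although Aldoc made up 3.59% of the aldolase RNA, its change at 12 h was similar in size, at 1.37 ± 0.15 in dDAVP cells and 1.22 ± 0.15 in vehicle cells (adjusted p = 5.23e-06 and 5.7e-05). The difference between the 2 genes was not tested.

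Tpi1, Pgk1, Pgam1 and Eno1 followed with log2 changes at 12 h of 1.34, 1.11, 0.78 and 0.70 in dDAVP cells and 1.38, 1.12, 0.85 and 0.75 in vehicle cells. Eno2, the neuronal enolase, is a low-level gene here (mean 2.2 TPM) and changed by 1.57 ± 0.19 in dDAVP cells and 1.15 ± 0.19 in vehicle cells (adjusted p = 2.54e-05 and 0.00214). Gapdh, the glyceraldehyde phosphate dehydrogenase that is often used as a loading control, had 2029, 2601 and 2439 CPM at 3 h, 3083, 3343 and 2877 CPM at 6 h, 3879, 3941 and 4431 CPM at 12 h and 3574, 4001 and 3182 CPM at 24 h in dDAVP cells. The vehicle libraries of Gapdh had 1625, 1839 and 2219 CPM at 3 h, 2112, 2094 and 2321 CPM at 6 h, 2404, 3747 and 3274 CPM at 12 h and 3388, 3837 and 3124 CPM at 24 h. All 12 h libraries of Gapdh lay above the 3 h libraries in both treatments. Its log2 change at 12 h was 0.79 ± 0.17 in dDAVP cells and 0.73 ± 0.16 in vehicle cells (adjusted p = 0.0126 and 0.0347), and with the share as covariate 0.76 and 0.56 (adjusted p = 1.08e-08 and 7.85e-06). From the group means the Gapdh call at 12 h passed in 20 of 24 fits that left out 1 library in dDAVP cells and in 4 of 24 in vehicle cells.

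The fate of pyruvate is set by lactate dehydrogenase and by the kinases that switch off pyruvate dehydrogenase. Ldha, the form that favors lactate, had 705, 1019 and 914 CPM at 3 h, 1065, 1397 and 1026 CPM at 6 h, 1969, 1955 and 2105 CPM at 12 h and 1568, 1682 and 1435 CPM at 24 h in dDAVP cells. Ldha in vehicle cells had 524, 692 and 729 CPM at 3 h, 728, 792 and 832 CPM at 6 h, 1186, 1727 and 1562 CPM at 12 h and 1356, 1546 and 1320 CPM at 24 h. It rose at 12 h by 1.19 ± 0.16 in dDAVP cells and 1.20 ± 0.17 in vehicle cells (adjusted p = 0.000126 and 0.000195). Pdk1, the pyruvate dehydrogenase kinase induced by HIF-1, had 47.6, 67 and 60.7 CPM at 3 h, 65.7, 91 and 65.1 CPM at 6 h, 242, 231 and 225 CPM at 12 h and 192, 171 and 161 CPM at 24 h in dDAVP cells. Pdk1 in vehicle cells had 46.9, 57.5 and 59.7 CPM at 3 h, 56.9, 69.5 and 69.7 CPM at 6 h, 151, 209.5 and 194 CPM at 12 h and 164, 178 and 154 CPM at 24 h. Its log2 change at 12 h was 1.99 ± 0.15 in dDAVP cells and 1.76 ± 0.15 in vehicle cells (adjusted p = 2.98e-08 and 1.99e-07) and at 24 h 1.58 ± 0.15 in dDAVP cells and 1.60 ± 0.15 in vehicle cells (adjusted p = 3.14e-06 and 2.69e-06). None of 9 other genes around pyruvate dehydrogenase passed at 12 h against 3 h in either treatment or model. Among them are subunits of the enzyme, kinases and phosphatases that act on it, and mitochondrial pyruvate carriers.

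Pfkfb3 and Pfkfb4 make fructose-2,6-bisphosphate, the activator of phosphofructokinase. Pfkfb3 had 16.8, 25.6 and 25.3 CPM at 3 h, 31.6, 42.5 and 30.9 CPM at 6 h, 33.2, 38.3 and 38 CPM at 12 h and 19.2, 18.8 and 15.6 CPM at 24 h in dDAVP cells, and 19, 19.4 and 17.7 CPM at 3 h, 21.4, 27.6 and 22.9 CPM at 6 h, 27.8, 31.1 and 30.8 CPM at 12 h and 18.8, 23.1 and 18.8 CPM at 24 h in vehicle cells. The 12 h libraries of Pfkfb3 lay above all 3 h and all 24 h libraries of their treatment. It rose at 12 h by 0.70 ± 0.15 in dDAVP cells and 0.68 ± 0.15 in vehicle cells (adjusted p = 0.0156 and 0.031). Pfkfb4 gave a log2 change of -0.0051 ± 0.19 in dDAVP cells and 0.083 ± 0.19 in vehicle cells, and its course passed in neither treatment.

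Of the HIF regulators, the 2 hydroxylases rose at 12 h and the 2 alpha subunits did not pass. Hif1a had 169.9, 224 and 217 CPM at 3 h, 234, 231 and 194 CPM at 6 h, 228, 238 and 191 CPM at 12 h and 249, 265 and 249 CPM at 24 h in dDAVP cells. In vehicle cells, the values of Hif1a were 151, 178 and 198 CPM at 3 h, 180.3, 169 and 182 CPM at 6 h, 167, 244 and 216 CPM at 12 h and 231, 221 and 204 CPM at 24 h. Its 12 h and 3 h libraries overlapped in both treatments, with a log2 change of 0.11 ± 0.14 in dDAVP cells and 0.25 ± 0.14 in vehicle cells (adjusted p = 1 and 0.617). Egln3 (PHD3), a hydroxylase that is itself a HIF target, had 25.9, 51.6 and 42.7 CPM at 3 h, 47.9, 81.5 and 59.6 CPM at 6 h, 107, 84.2 and 112 CPM at 12 h and 28.1, 39.2 and 30.6 CPM at 24 h in dDAVP cells. Vehicle cells gave Egln3 values of 19.4, 26.4 and 26.4 CPM at 3 h, 30, 43.1 and 33.4 CPM at 6 h, 55.3, 87.7 and 75 CPM at 12 h and 29.1, 47 and 27.1 CPM at 24 h. Egln3 rose at 12 h by 1.34 ± 0.24 in dDAVP cells and 1.59 ± 0.24 in vehicle cells (adjusted p = 0.0033 and 0.000694) and at 24 h stood at -0.30 ± 0.24 in dDAVP cells and 0.52 ± 0.24 in vehicle cells relative to 3 h, neither of which passed. Egln1 (PHD2), the main oxygen sensor among the hydroxylases, rose at 12 h by 1.33 ± 0.17 in dDAVP cells and 1.00 ± 0.17 in vehicle cells (adjusted p = 5.01e-05 and 0.00282). Among 13 other oxygen-sensing genes none passed at 12 h from the group means, and with the receptor share 2 fell in dDAVP cells, the ubiquitin ligases Siah1a and Siah2, which act on the EGLN hydroxylases, where 3.67% of all genes fell.

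Of the HIF targets of the mitochondria, 4 of 5 rose at 12 h in each treatment. Bnip3, an outer-membrane receptor for mitophagy, had 32, 59.6 and 55.1 CPM at 3 h, 49.9, 112 and 63 CPM at 6 h, 359.5, 316 and 337 CPM at 12 h and 183, 197 and 145 CPM at 24 h in dDAVP cells. In vehicle cells Bnip3 had 27.1, 35.3 and 27.7 CPM at 3 h, 39.9, 52.7 and 50.4 CPM at 6 h, 181, 288 and 264 CPM at 12 h and 141, 175 and 143 CPM at 24 h. Every 12 h library lay above all 3 h and 6 h libraries of both treatments. The log2 change of Bnip3 at 12 h, 2.79 ± 0.25 in dDAVP cells and 3.02 ± 0.25 in vehicle cells, was the largest of the 40 genes in both treatments (adjusted p = 2.13e-07 and 1.99e-07). At 24 h it was 1.84 ± 0.24 in dDAVP cells and 2.35 ± 0.24 in vehicle cells (adjusted p = 8.11e-05 and 7.95e-06). Its relative Bnip3l (NIX), which is more abundant, rose by 0.93 ± 0.15 in dDAVP cells and 0.99 ± 0.15 in vehicle cells (adjusted p = 0.00071 and 0.000471). Bnip3 made up 28.1 ± 0.749% of the RNA of the pair at 12 h in dDAVP cells, against 10 ± 1.83% at 3 h, and 24.7 ± 1.17% at 12 h in vehicle cells, against 7.86 ± 1.33% at 3 h (TPM, SD, n = 3 each).

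Fam162a (HGTD-P), a mitochondrial protein linked to hypoxic cell death, had 59, 83.4 and 69.9 CPM at 3 h, 80.3, 125 and 89.9 CPM at 6 h, 266, 244 and 298 CPM at 12 h and 193, 205 and 169 CPM at 24 h in dDAVP cells, and 42.4, 54.1 and 60.4 CPM at 3 h, 57.4, 69.8 and 72.2 CPM at 6 h, 150.3, 251 and 203 CPM at 12 h and 156, 184 and 151 CPM at 24 h in vehicle cells. It rose at 12 h by 1.93 ± 0.18 in dDAVP cells and 1.94 ± 0.18 in vehicle cells (adjusted p = 4.25e-07 and 7.7e-07). Higd1a, a small protein of the inner mitochondrial membrane, rose by 1.11 ± 0.15 in dDAVP cells and 1.08 ± 0.15 in vehicle cells (adjusted p = 0.000117 and 0.000268). Ak4 was near the limit of detection, and its only call, lower at 24 h than at 3 h in vehicle cells (-1.73 ± 0.64, adjusted p = 0.0391), did not pass with the share as covariate (adjusted p = 0.946).

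Among the collagen hydroxylases, both members rose at 12 h in each treatment. P4ha2, a subunit of collagen prolyl hydroxylase, had 8.75, 7.37 and 8.9 CPM at 3 h, 6.13, 8.41 and 8.09 CPM at 6 h, 23.9, 22.4 and 24.7 CPM at 12 h and 12.4, 9.36 and 8.82 CPM at 24 h in dDAVP cells, and 9.2, 8.7 and 7.69 CPM at 3 h, 8.04, 7.76 and 7.45 CPM at 6 h, 16.7, 17.4 and 18.4 CPM at 12 h and 8.82, 12.2 and 10.5 CPM at 24 h in vehicle cells. The 12 h libraries of P4ha2 stood above all other libraries of their treatment, and the log2 change was 1.50 ± 0.15 in dDAVP cells and 1.03 ± 0.15 in vehicle cells (adjusted p = 1.39e-06 and 0.000437). P4ha1 rose by 1.06 ± 0.17 in dDAVP cells and 1.05 ± 0.17 in vehicle cells (adjusted p = 0.000672 and 0.00115). Kdm3a, a histone demethylase, did not pass from the group means (0.38 ± 0.15 in dDAVP cells and 0.48 ± 0.15 in vehicle cells, adjusted p = 0.372 and 0.19). With the share it passed in dDAVP cells and not in vehicle cells (0.36 and 0.32, adjusted p = 0.00747 and 0.0522), and its course passed in both. Vegfa, the angiogenic growth factor, had 31, 44.6 and 34.6 CPM at 3 h, 44.7, 51.6 and 43.2 CPM at 6 h, 50.7, 51.5 and 46.7 CPM at 12 h and 44.5, 47.1 and 37.7 CPM at 24 h in dDAVP cells. Vegfa in vehicle cells had 23.9, 28 and 33.5 CPM at 3 h, 28.9, 35.6 and 32.8 CPM at 6 h, 34.5, 46.2 and 51.4 CPM at 12 h and 44.6, 44.5 and 36.6 CPM at 24 h. Its 12 h libraries lay above its 3 h libraries in both treatments, but the log2 change was 0.43 ± 0.15 in dDAVP cells and 0.63 ± 0.15 in vehicle cells and passed in neither from the group means (adjusted p = 0.244 and 0.0576); with the receptor share it passed in both (adjusted p = 0.0175 and 0.0139).

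Ddit4 (REDD1), an inhibitor of mTORC1, had 17.1, 26.1 and 22.9 CPM at 3 h, 23.3, 29.9 and 23.2 CPM at 6 h, 19, 17.6 and 22.2 CPM at 12 h and 21.4, 17.5 and 20.2 CPM at 24 h in dDAVP cells. In vehicle cells Ddit4 gave 11.1, 14.9 and 15.5 CPM at 3 h, 17, 17.4 and 20.6 CPM at 6 h, 14.8, 24.9 and 18.5 CPM at 12 h and 21.5, 26.8 and 19.5 CPM at 24 h. Its 12 h and 3 h libraries overlapped in both treatments, and its course passed in neither treatment nor model. Car9, a standard marker of hypoxia in tumors, averaged 0.362 TPM and did not pass. In all, 9 genes passed the course test in neither treatment from the group means: Hif1a, Epas1, Kdm3a, Ddit4, Pfkfb4, Slc16a3, Car9, Ldhb and Ak4.

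**Figure D3:**
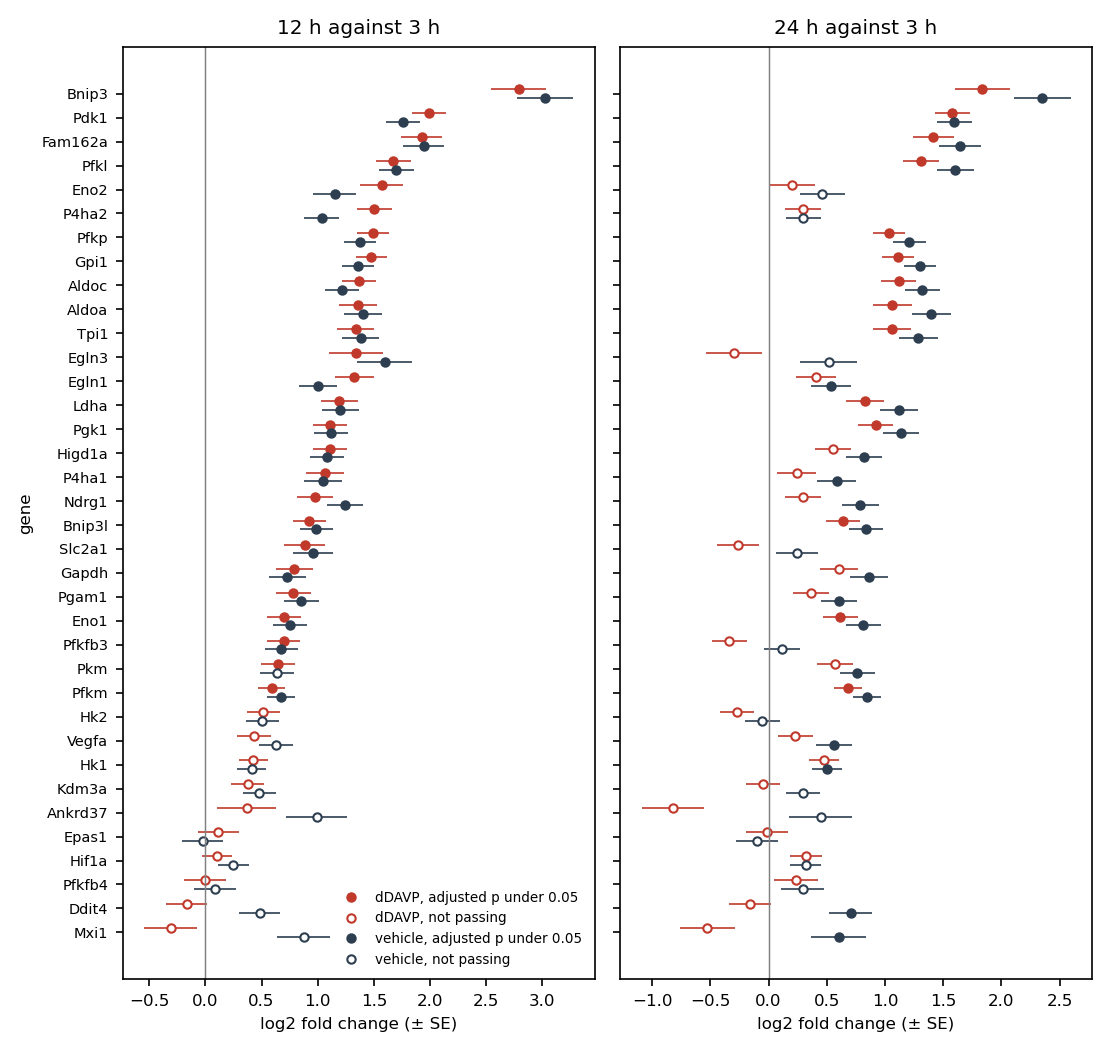
log2 fold change (x axis, with SE) of 12 h against 3 h (left) and 24 h against 3 h (right) for the 36 genes that reached 5 CPM, in dDAVP cells (red, upper point of each pair) and vehicle cells (dark blue). Filled points pass at an adjusted p under 0.05 from the group means. Bnip3 leads in both panels, and Slc2a1, Egln3, P4ha2, Eno2 and Pfkfb3 lie closer to 0 at 24 h than at 12 h.

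At 24 h against 3 h, 14 genes were still higher in dDAVP cells, where 1.01% of all genes tested rose. In vehicle cells 25 genes were higher and 1 (Ak4) lower, but there 18.4% of all genes rose and 19.7% fell, and the receptor share was 0.184 to 0.306% at 24 h and 0.398 to 0.917% at 3 h. With this share in the model, 17 genes were higher and 5 lower in dDAVP cells, and 16 were higher in vehicle cells, with 1.37% and 0.541% of all genes higher and 2.63% lower in dDAVP cells. The 5 lower genes were Slc2a1 (-0.51 on the log2 scale), Hk2 (-0.47), Ddit4 (-0.45), Mxi1 (-0.81) and Ankrd37 (-1.22). In both treatments and both models 14 genes were higher: Aldoa, Aldoc, Bnip3, Bnip3l, Eno1, Fam162a, Gpi1, Ldha, Pdk1, Pfkl, Pfkm, Pfkp, Pgk1 and Tpi1. The 12 h and 24 h comparisons share their 3 h libraries. Some calls of 24 h from the group means were lost in a fit that left out 1 library, for Bnip3l, Eno1, Ldha and Pfkm in dDAVP cells and for Ak4, Ddit4, Egln1, Hk1, Mxi1, P4ha1, Pgam1 and Vegfa in vehicle cells.

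The direct comparison of 24 h with 12 h was added after the data were seen. In dDAVP cells 7 genes were lower at 24 h, and in vehicle cells none were (11 had an unadjusted p under 0.05, as had 25.1% of all genes, and DESeq2 called 0), while 0.037% and 0.00336% of all genes were lower. The 7 genes were Egln3 (log2 change -1.63 ± 0.24, adjusted p = 0.00366), Eno2 (-1.37 ± 0.19), P4ha2 (-1.21 ± 0.15), Slc2a1 (-1.15 ± 0.18), Pfkfb3 (-1.03 ± 0.15), Egln1 (-0.92 ± 0.17) and Hk2 (-0.79 ± 0.15). In vehicle cells their log2 changes were -1.08, -0.69, -0.73, -0.71, -0.56, -0.46 and -0.56 in the same order. The covariate gave 26 genes lower in dDAVP cells and 14 in vehicle cells, the 14 all among the 26, with 0.343% and 0.0773% of all genes lower. Whether this fall differed between the treatments was not tested.

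Against this course, the difference between dDAVP and vehicle was small, and it depended on the model. At 3 h a single gene of the 40 passed, Ndrg1, where 0.467% of all genes were higher from the group means and 0.619% with the covariate. At 6 h 27 genes were higher in dDAVP cells from the group means, but so were 20.9% of all genes tested and 46.5% of those that reached 5 CPM. Principal cell markers at 6 h summed to 139 to 168 TPM in dDAVP cells and 89.5 to 107 TPM in vehicle cells. This list holds Aqp2, which had 177 to 231 CPM in dDAVP cells and 4.13 to 6.06 CPM in vehicle cells at 6 h. As vasopressin induces Aqp2, the sum does not measure the makeup of the cells. For 4 of 5 other cell types the marker sums at 6 h were lower in dDAVP cells without overlap: leukocyte 9.07 to 10.5 TPM in dDAVP cells and 13.4 to 16.02 TPM in vehicle cells, fibroblast 0.624 to 1.36 and 2.47 to 3.46, proximal tubule 2.03 to 2.92 and 4.54 to 5.52, and endothelium 0.87 to 1.44 and 2.09 to 4.76. The leukocyte markers above 1 TPM, Csf1r and Cd68, were not lower at 6 h on the CPM scale used for the tests. Csf1r overlapped, at 21.65 to 24.59 CPM in dDAVP cells and 23.06 to 24.37 CPM in vehicle cells. Cd68 was higher, at 6.186 to 8.545 CPM in dDAVP cells and 5.3 to 6.15 CPM in vehicle cells. Intercalated cell markers overlapped, at 0.964 to 1.41 TPM in dDAVP cells and 1.23 to 2.30 TPM in vehicle cells. No listed marker of these types was at 0 in all libraries, and their part in the result was not tested. Over all genes tested the median log2 effect at 6 h was -0.39 from the group means, against 0.32 for genes that reached 5 CPM. Genes of low level were thus lower in dDAVP cells in general, and how often without overlap was not counted. Once the receptor share was a covariate, 0 of the 40 passed at 6 h, 3 with an unadjusted p under 0.05 (6.14% of all genes), and the share of all genes called higher was 0.279%. The receptor share did not overlap between the treatments at 6 h, so its effect and that of dDAVP cannot be told apart at that time. The median log2 effect of the 40 genes at 6 h was 0.44 from the group means and 0.034 with the receptor share, against 0.32 and 0.024 for genes that reached 5 CPM. Of the 27 genes, 18 were below 0 when the test was run on log2(TPM + 1), and leaving out any of 16 libraries cut the count to between 0 and 15. These were all 6 libraries of 6 h, all dDAVP libraries of 12 h and 24 h, replicate 3 of dDAVP and of vehicle at 3 h, and vehicle replicates 2 and 3 of 24 h. Slc2a1, for example, was 0.71 ± 0.18 higher at 6 h (adjusted p = 0.0175) and 0.25 with the receptor share (adjusted p = 0.921), and Hk2 was 0.75 ± 0.15 (adjusted p = 0.00653) and 0.40 (adjusted p = 0.517).

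At 12 h no gene of the 40 passed from the group means with edgeR or DESeq2, where 0.0773% of all genes passed. An unadjusted p under 0.05 was found for 16 of the 40 and for 3.8% of all genes. In 22 genes all 3 dDAVP libraries lay above all 3 vehicle libraries, which was so for 2.47% of all genes tested and 3.57% of those that reached 5 CPM. The 40 genes had a median log2 effect of 0.32, with 35 above 0, against 0.065 for genes that reached 5 CPM. With this covariate their median was 0.25 and 2 passed, Gapdh and Ndrg1, where 0.212% of all genes were higher. With the share and a filter at 5 CPM together, 10 of the 36 genes tested passed, where 1.07% of all genes were higher. For Gapdh the effect at 12 h was 0.38 ± 0.16 from the group means (adjusted p = 0.917) and 0.30 with the share (adjusted p = 0.0362). The summed glycolytic enzymes at 12 h were 6255 to 6853 TPM in dDAVP cells and 5258 to 5801 TPM in vehicle cells, without overlap. The vehicle libraries at 12 h spread widely, with receptor shares of 0.181 to 0.758%, against 0.283 to 0.387% in dDAVP cells, and the lowest vehicle values of most genes came from the library of the highest share. At 24 h no gene passed in either model or with DESeq2. An unadjusted p under 0.05 was found for 2 from the group means and 4 with the covariate (3.18% and 8.89% of all genes), and 0.0841% and 0.35% of all genes passed the adjusted threshold.

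**Figure D4:**
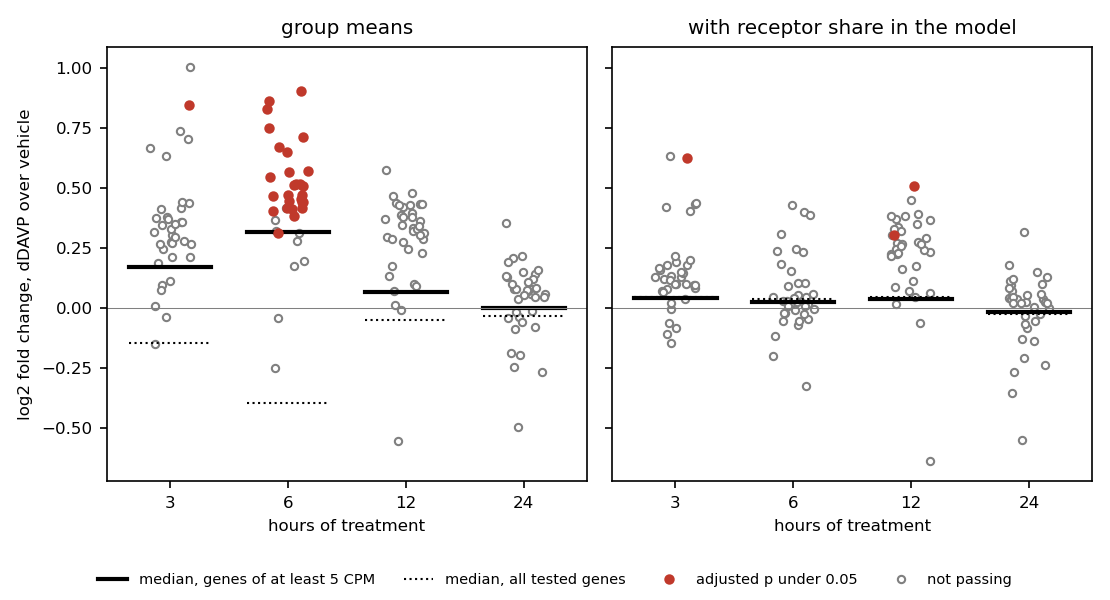
log2 fold change of dDAVP over vehicle (y axis) at 3, 6, 12 and 24 h for the 36 genes that reached 5 CPM, from the group means (left) and with the share as covariate (right). Each point is a gene, red where its adjusted p is under 0.05. Black lines mark the median of all genes that reached 5 CPM (solid) and of all genes tested (dotted). Most 6 h points lie above the solid line on the left and around it on the right, and most 12 h points lie above it in both panels.

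Ndrg1, a stress- and hypoxia-induced gene linked to differentiation and growth restraint, passed for a difference between dDAVP and vehicle at 3 h in both models. In dDAVP cells Ndrg1 had 81.9, 104 and 89.1 CPM at 3 h, 88.7, 125 and 88.1 CPM at 6 h, 193, 169 and 178 CPM at 12 h and 116, 113 and 109 CPM at 24 h. The vehicle values of Ndrg1 were 42.6, 52.7 and 58 CPM at 3 h, 49.9, 58.4 and 57.8 CPM at 6 h, 93.6, 147 and 123 CPM at 12 h and 91.5, 100.2 and 73 CPM at 24 h. The dDAVP libraries lay above the vehicle libraries without overlap at all 4 times. The log2 effect was 0.84 ± 0.16 at 3 h (adjusted p = 0.00607), 0.86 ± 0.16 at 6 h (0.00331), 0.57 ± 0.16 at 12 h (0.537) and 0.36 ± 0.16 at 24 h (1). As fitted with the share it was 0.62 (adjusted p = 0.000579), 0.39 (0.363), 0.51 (0.0053) and 0.32 (0.198). The mean of the 4 effects was 0.66 ± 0.079 (adjusted p = 4.72e-06), and with the share 0.46 (adjusted p = 9.68e-06). It passed under every alternative tried for this mean, with adjusted p between 2.09e-08 and 9.92e-05, and it was the only gene of the 40 whose mean effect passed in both models. The mean effect passed for 28 genes from the group means and 1 with the share, where 16.7% and 0.951% of all genes were higher. The call at 3 h was lost without vehicle replicate 1 of 3 h (adjusted p = 0.0984), without dDAVP replicate 2 (0.0925) or replicate 3 of 3 h (0.0688) and with median-of-ratios size factors (0.0867). Over time Ndrg1 rose as well, with a log2 change at 12 h against 3 h of 0.97 ± 0.16 in dDAVP cells and 1.25 ± 0.16 in vehicle cells (adjusted p = 0.000947 and 7.91e-05).

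Mxi1, a transcriptional repressor that opposes MYC, was the only gene of the 40 to pass the test of whether the dDAVP effect differs among the times. In dDAVP cells Mxi1 had 48.1, 57 and 51.4 CPM at 3 h, 44.8, 62.1 and 55.1 CPM at 6 h, 41.5, 36.1 and 48.7 CPM at 12 h and 47, 38.6 and 23.2 CPM at 24 h. The vehicle libraries of Mxi1 had 20, 36.6 and 44.4 CPM at 3 h, 33.8, 28.6 and 24.2 CPM at 6 h, 61.4, 78.6 and 45.1 CPM at 12 h and 53.3, 51.9 and 48.1 CPM at 24 h. The dDAVP libraries were above the vehicle libraries at 3 h and 6 h, overlapped them at 12 h and were below them at 24 h. The log2 effects were 0.63 ± 0.24, 0.90 ± 0.24, -0.55 ± 0.23 and -0.50 ± 0.24 at 3, 6, 12 and 24 h. This test passed from the group means (adjusted p = 0.0462, where 0.343% of all genes passed) and not with the receptor share (adjusted p = 0.0938, 0.256% of all genes). Of the effects at single times, the one at 6 h passed from the group means (adjusted p = 0.0181) and none with the share.

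**Figure D5:**
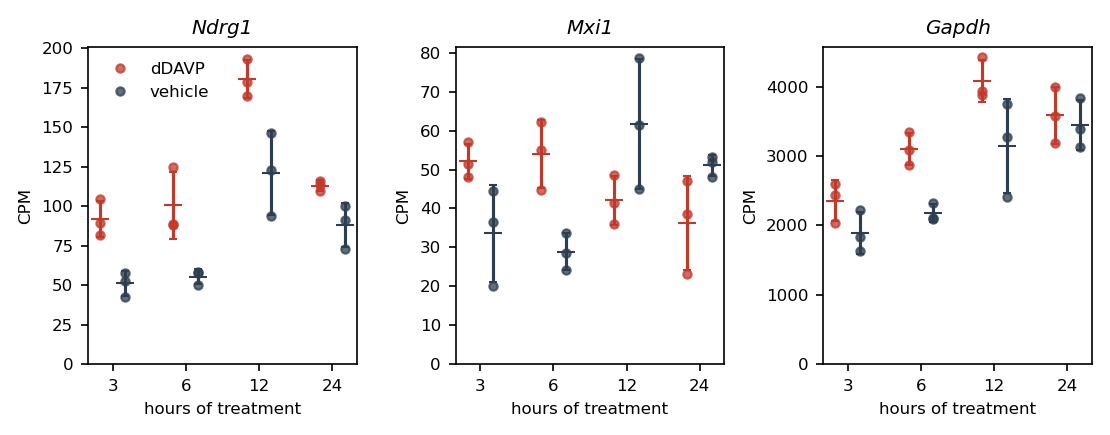
CPM (y axis, from 0) at 3, 6, 12 and 24 h of Ndrg1, Mxi1 and Gapdh, dDAVP in red and left of vehicle in dark blue at each time. Points are libraries, and the horizontal line and whiskers are the mean and SD (n = 3). The dDAVP points of Ndrg1 lie above the vehicle points at each time, and those of Mxi1 lie above at 3 h and 6 h and below at 24 h.

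Of 29 other glycolytic and glycogen genes tested, 4 rose at 12 h against 3 h in dDAVP cells and 3 in vehicle cells, and none fell, from the group means. Among these were Pgm1, phosphoglucomutase (log2 change 1.62 in dDAVP cells and 1.45 in vehicle cells), Gys1, glycogen synthase (1.20 and 0.99), and Bsg, basigin, the chaperone of lactate carriers (0.79 and 0.79). Under the covariate 6 rose and 4 fell in dDAVP cells, and 4 rose and 1 fell in vehicle cells, while 3.23% of all genes rose and 3.67% fell in dDAVP cells and 1.6% rose and 1.17% fell in vehicle cells. Of 29 other HIF targets tested, 5 rose in dDAVP cells and 6 in vehicle cells, and none fell. Among them were Ero1l, an oxidase of the endoplasmic reticulum (1.24 and 1.06), and Plod2, a collagen lysyl hydroxylase (0.94 and 0.94). Here the covariate gave 10 higher and 3 lower in dDAVP cells, and 6 higher and 2 lower in vehicle cells, to be read against the same shares of all genes. The medians of both lists, -0.048 and 0.15 in dDAVP cells and 0.0083 and 0.27 in vehicle cells, were below that of the 40 genes, and these lists were drawn up with earlier results of the data known.

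Of the 26 calls in dDAVP cells and the 25 in vehicle cells, 19 each passed in all 24 fits that left out 1 library. The others were lost in at least 1 such fit, namely Eno1, Gapdh, Pfkfb3, Pfkm, Pgam1 and Slc2a1 in both treatments and Pkm in dDAVP cells. In dDAVP cells the receptor share was 0.283 to 0.387% at 12 h and 0.28 to 0.518% at 3 h, and in vehicle cells 0.181 to 0.758% at 12 h and 0.398 to 0.917% at 3 h.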

How the data were processed

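Per the labels, cDNA came from total RNA by the SMART-Seq HT kit, and Nextera was used for the libraries. The authors deposited estimated counts per Ensembl gene, without normalization, and a TPM table of the same layout. Per the submitters' processing notes, Salmon 0.14.10 and GRCm38.p6 were used; its settings and any transcript-to-gene summing: not given in the sources used here. Each of the 24 columns was matched to the labels.

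Estimated counts were rounded for edgeR 4.0.16 under R 4.3.3 (with limma 3.58.1): TMM scaling (factors 0.814 to 1.326), filterByExpr (29743 of 54432 genes), 1 mean per group over 24 libraries, the quasi-likelihood F test, and Benjamini-Hochberg adjustment over all genes tested, which stands behind every adjusted p. CPM use TMM library sizes. TPM served to compare levels between genes, since counts are not corrected for length. Gene names came from GENCODE M21 (54346 of 54432 identifiers). The members, gene lists, tests and the receptor-share covariate were chosen with earlier results of these data known. Genes given library by library were those called for a dDAVP effect or its time dependence (for 6 h and for the mean effect, in both models), up to 8 of smallest p per treatment for the course in both models, and 8 fixed genes. Replicates differed by a chi-square per gene of 2.50 to 35.8, so no library duplicates another. The test was tried on simulated counts without a receptor-share effect, which cannot show how it behaves where that share differs between groups. Alternatives were median-of-ratios size factors, DESeq2 1.42.0, no filter, a 5 CPM filter (13123 genes), limma on log2 TPM with 1 or 0.1 added, a replicate block, and leaving out each library. Promoter windows are RefSeq's. A result for 1 gene outside the 40 is not reported here. Figures were drawn with matplotlib 3.10.9.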

Additional observations from a re-analysis of the deposited data

Results flagged for a closer look

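The dDAVP effect on Mxi1 differed between times by the F test of 3 interaction contrasts (adjusted p = 0.0462, edgeR). With the share as covariate the adjusted p was 0.0938. It was above the threshold in 20 of 24 fits that left out 1 library (range 0.0121 to 0.261), while DESeq2 gave 0.0152. Leaving out vehicle replicate 1 or 3 of 3 h, vehicle replicate 3 of 12 h or dDAVP replicate 1 of 24 h kept the call. The other 39 genes did not pass this test, 5 of them with an unadjusted p under 0.05, as had 7.44% of all genes.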

How the results depend on the processing

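The course counts stayed within 1.5 times under all alternatives, and leaving out 1 library gave 26 to 34 genes in vehicle cells and 23 to 29 in dDAVP cells. The dDAVP counts did not. At 3 h (1 gene) the count was 0 with median-of-ratios size factors, 2 with no filter, 2 with limma on log2(TPM + 1), 2 with the replicate block and 2 with the block and receptor share, and 0 to 3 without single libraries. At 6 h (27) it was 0 with the receptor share, alone, with the 5 CPM filter or with the block, 16 with median-of-ratios size factors, 10 with no filter, 2 with the 5 CPM filter, 1 and 3 with limma on log2(TPM + 1) and log2(TPM + 0.1), and 0 to 29 without single libraries. At 12 h (0) it was 2 with the share, 3 with the 5 CPM filter, 10 with both, 5 with share and block, and 0 to 1 without single libraries, the 1 being Ndrg1 without vehicle replicate 2 (adjusted p = 0.028). At 24 h it was 0 throughout. For the mean effect (28) it was 1 with the share, 2 with the share and 5 CPM filter, 3 with share and block, 7 and 6 with limma, 13 without the 2 libraries of highest share (an alternative added after seeing the data), and 7 to 31 without single libraries. It fell to 16 without dDAVP replicate 3 of 3 h, 12 without dDAVP replicate 2 of 6 h, 18 without dDAVP replicate 3 of 12 h and 7 without vehicle replicate 3 of 24 h. Time dependence (1) was 0 with the share, alone, with the 5 CPM filter or with the block, with median-of-ratios size factors, the 5 CPM filter, the block or limma, and 0 to 1 without single libraries. The causes were not tested. A chosen set of single genes and comparisons, not all of them, was tallied over the fits that left out 1 library. In this set 2838 fits kept direction and side of the threshold, 261 lost and 21 gained a call, and none turned sign. Other fold changes of dDAVP against vehicle did turn sign in such fits. Ddit4 at 12 h ranged from -0.149 to 0.283 and Pdk1 at 6 h from -0.0774 to 0.231.

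Same-numbered libraries had correlations of -0.672 to 0.77 (median 0.0082), and 10 of 24 correlated best with their own number. The receptor share was not taken out of this check, so it cannot settle whether the numbers pair the libraries. The replicate block left 27 of 27 calls at 6 h and gave 29 in all. Within the chosen set of genes and comparisons, signs turned in limma on log2(TPM + 1) and log2(TPM + 0.1) for Gapdh (-0.022, -0.022), Pfkfb3 (-0.021, -0.023) and Ddit4 (-0.055, -0.062) at 6 h, for the mean effect of Pfkfb3 (-0.048, -0.060), Hif1a (-0.067, -0.070) and Ddit4 (-0.0096, -0.011), and for Hk1 at 24 h in vehicle cells (-0.023, -0.024). Ddit4 at 6 h was -0.070 with the share, -0.11 with the share and 5 CPM filter and -0.022 with share and block, and its mean effect -0.0093 with the share and 5 CPM filter. The lowest genes are limited by depth: 5 lay under 1 TPM.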
